A study of Mus musculus with 8 samples.

Results

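Canonical YAP targets are genes that the transcriptional coactivator YAP and its DNA-binding TEAD partners are known to switch on in many cell types. The group described here holds 10 of them from outside the CCN family and the Hippo feedback genes: Ankrd1, Nt5e, Axl, Crim1, F3, Gadd45b, Myof, Dock5, Nuak2 and Arhgef17. They were taken by gene name from an assembly of 26747 loci, where they occupied 11 loci because Crim1 was listed at a second locus too. Of these, 10 loci, 1 for each gene, passed the filter on low counts, out of 14574 loci tested.

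The libraries came from whole stomachs of mouse embryos at E13.5, with 4 from Nkx3.2Cre;R26-YAP5SA embryos (called YAP5SA here) and 4 from wild type embryos. In YAP5SA embryos, Cre recombinase is driven by Nkx3-2, a gene of the stomach mesenchyme, and turns on a YAP transgene in the Rosa26 locus whose inhibitory Hippo phosphorylation sites are mutated. No library carried Cre alone, so effects of the Cre allele and of the transgene cannot be told apart, and the labels say nothing of sex, litter or pooling. The YAP5SA libraries held 7.29 to 8.51 M fragments and the wild type libraries 6.33 to 6.92 M. The Yap1 locus averaged 224 ± 13.46 CPM in YAP5SA and 232 ± 7.46 CPM in wild type stomachs (SD, n = 4 each, edgeR adjusted p = 0.555). Nothing in the labels or files says where transgene fragments were counted. The gene for the YAP relative TAZ, Wwtr1 (159 ± 10.2 against 147 ± 12 CPM, adjusted p = 0.291), and Nkx3-2 (79.1 ± 14.5 against 63 ± 10.5 CPM, adjusted p = 0.148) did not pass the test. The noncoding Rosa26 transcript Gt(ROSA)26Sor was higher in YAP5SA, at 26.8 ± 2.32 against 16.4 ± 4.75 CPM (adjusted p = 0.0296), a call lost when YAP5SA replicate 1, 2 or 4 (0.0561, 0.0653 and 0.0568) or wild type replicate 1 (0.0512) was left out and in all FPKM fits (0.199 to 0.22). As defining markers of the tissue, Barx1, Nkx3-2, Foxf1a, Pdgfra, Col1a1 and Col3a1 together reached 1569 to 1820 CPM in YAP5SA and 1909 to 1995 CPM in wild type stomachs. Of these 6 markers, 2 were called lower and 0 higher, where 9.85% of all tested loci were called lower. The 2 were Foxf1a (87.7 ± 11.7 against 146 ± 4.9 CPM, adjusted p = 0.000306) and Col3a1 (541.5 ± 26 against 630.6 ± 12.4 CPM, adjusted p = 0.0126).

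In the Hippo pathway a chain of kinases phosphorylates YAP and keeps it out of the nucleus, while unphosphorylated YAP enters the nucleus and binds TEAD factors at gene control regions. TEAD factors recognise the element GGAATG, and AP-1 factors, which bind TGANTCA, often sit beside them. The products of the 10 genes serve in different places: a nuclear and sarcomeric cofactor (Ankrd1), proteins of the cell surface (Nt5e, F3, Axl, Crim1 and Myof), a stress sensor (Gadd45b), a kinase (Nuak2) and activators of small GTPases (Dock5 and Arhgef17).

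Promoter windows from 250 bases before to 50 bases after the RefSeq start site (GRCm38.p6, the same assembly as mm10) were found for 7 of the 10 genes, which were Ankrd1, Nt5e, Axl, Crim1, F3, Gadd45b and Myof. The 4 windows with a motif are shown because they let the motif letters be read beside the expression values, with GGAATG or TGANTCA in capitals and each window written 5′ to 3′ on the strand of its gene. The Ankrd1 window lies at chr19:36119795-36120094 on the minus strand, Crim1 at chr17:78199998-78200297 on the plus strand, Axl at chr7:25788684-25788983 on the minus strand and F3 at chr3:121723287-121723586 on the plus strand.
Ankrd1: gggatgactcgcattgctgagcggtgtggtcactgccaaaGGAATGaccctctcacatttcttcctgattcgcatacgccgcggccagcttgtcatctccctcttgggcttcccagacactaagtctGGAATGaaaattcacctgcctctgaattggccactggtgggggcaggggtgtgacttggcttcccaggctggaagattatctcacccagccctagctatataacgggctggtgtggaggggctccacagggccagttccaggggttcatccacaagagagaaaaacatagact
Crim1: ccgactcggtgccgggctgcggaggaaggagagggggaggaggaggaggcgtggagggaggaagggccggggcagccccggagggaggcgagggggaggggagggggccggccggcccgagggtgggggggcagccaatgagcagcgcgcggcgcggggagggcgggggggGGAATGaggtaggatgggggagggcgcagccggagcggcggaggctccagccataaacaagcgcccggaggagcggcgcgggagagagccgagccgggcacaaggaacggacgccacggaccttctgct
Axl: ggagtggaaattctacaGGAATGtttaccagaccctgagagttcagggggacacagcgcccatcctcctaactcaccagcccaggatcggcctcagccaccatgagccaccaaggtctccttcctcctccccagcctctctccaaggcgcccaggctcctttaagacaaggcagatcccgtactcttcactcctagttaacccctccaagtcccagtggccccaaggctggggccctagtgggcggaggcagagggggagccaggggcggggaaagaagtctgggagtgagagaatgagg
F3: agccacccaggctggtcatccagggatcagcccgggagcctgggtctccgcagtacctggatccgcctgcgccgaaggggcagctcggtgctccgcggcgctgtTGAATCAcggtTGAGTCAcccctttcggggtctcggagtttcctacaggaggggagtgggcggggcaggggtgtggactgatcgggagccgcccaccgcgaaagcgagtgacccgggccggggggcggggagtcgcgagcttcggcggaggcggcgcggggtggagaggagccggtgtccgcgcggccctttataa

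The Ankrd1 window held GGAATG at 2 places, starting 210 and 123 bases before the start site. The Crim1 and Axl windows held it at a single place each, 79 and 233 bases before the start site. With both strands searched, 14.7% of all 32851 windows of the RefSeq table held GGAATG at least once and 1.36% held it at 2 or more places. The F3 window held TGANTCA at 2 places, 146 and 135 bases before the start site, against 7.81% of all windows with at least 1 match and 0.46% with 2 or more. The serum response factor element known as the CArG box occurred in 0 of the 7 windows and in 1.63% of all windows. The motifs do not overlap each other in these windows. A match is a run of letters and not a measured binding site. Nt5e, Gadd45b and Myof had none of the 3 motifs in this window.

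In YAP5SA stomachs, 7 of the 10 genes rose and 0 fell, where 9.06% of all tested loci were called higher and 9.85% lower. Unless another fit is named, these shares also stand beside every count of called genes in a list below. The risers were Ankrd1, Nt5e, F3, Gadd45b, Crim1, Myof and Dock5, in order of fold change, and their rises ran from 113-fold to 1.56-fold. In all 7 every YAP5SA library lay above every wild type library, which held for 10.9% of tested loci, while 12.4% lay entirely below. Nuak2, Axl and Arhgef17 did not pass the test at an adjusted p under 0.05, and their libraries overlapped between genotypes. The median log2 fold change over the 10 genes was 0.81, beside -0.0056 over all tested loci. Since the stomachs were profiled whole, a change in the number of cells that express a gene and a change in transcript per cell cannot be told apart.

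**Figure D1:**
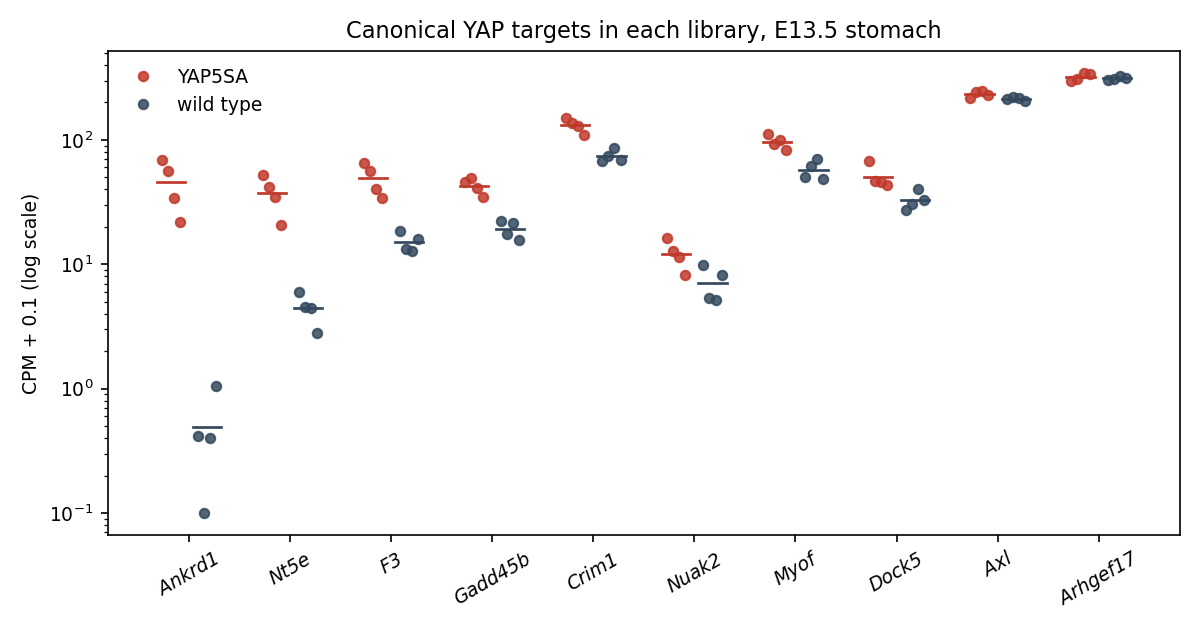
Level of each gene in each of the 8 libraries, as CPM + 0.1 on a log axis, with YAP5SA points (red) left of wild type points (dark blue) and a bar at each genotype mean of 4 libraries. The genotypes do not overlap for 7 genes and overlap for Nuak2, Axl and Arhgef17.

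Ankrd1 encodes a cardiac and skeletal muscle ankyrin repeat protein that moves between the sarcomere and the nucleus, and it is among the most widely used readouts of YAP activity. Its locus lies on chromosome 19 from 36111965 to 36119844 (mm10), and GENCODE M21 lists the gene of this name as protein-coding on the minus strand. The 4 YAP5SA libraries held 578, 409, 253 and 163 fragments of it, which are 69.2, 56.5, 34.1 and 21.9 CPM. The 4 wild type libraries held 2, 0, 2 and 6 fragments. Every wild type library was thus below 1 CPM and every YAP5SA library above 20 CPM. The means were 45.4 ± 21.4 CPM in YAP5SA and 0.391 ± 0.398 CPM in wild type stomachs (SD, n = 4 each), a log2 fold change of 6.83 ± 0.58 (SE, edgeR adjusted p = 7.06e-05). By log2 fold change it held rank 3 among the 14574 tested loci. The estimate rests on 10 fragments in all wild type libraries, and without wild type replicate 4 it was 7.69.

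Ankrd1 is also a gene of striated muscle, so markers of that tissue are given beside it. Of 6 tested skeletal and heart muscle markers, 4 rose: the muscle determination genes Myod1 and Myog, the sarcomere gene Actn2 and the atrial light chain gene Myl7. Myod1 stood at 2.28, 8.15, 17.7 and 10.2 CPM in YAP5SA replicates 1 to 4 and at 2.22, 0.441, 0.45 and 0.158 CPM in the wild type replicates. Myl7 stood at 19.4, 15.2, 11.2 and 10.7 CPM in YAP5SA replicates 1 to 4 and at 3.81, 3.38, 3.9 and 1.26 CPM in the wild type replicates. Among the YAP5SA libraries Myl7, like Ankrd1, was highest in replicate 1 and lowest in replicate 4, whereas Myod1, Myog and Actn2 were each lowest in replicate 1. The summed CPM of the 8 markers with a locus of their own ran from 37.7 to 65.6 in YAP5SA and from 9 to 23.4 in wild type stomachs, and within YAP5SA it was lowest in replicate 1 and highest in replicate 3. The part of striated muscle cells in the Ankrd1 values was not tested. The muscle creatine kinase gene Ckm and the natriuretic peptide gene Nppa reached at most 0.359 and 0.405 CPM in YAP5SA and 0.794 and 0.636 CPM in wild type libraries. The related muscle ankyrin repeat gene Ankrd2 (0.788 ± 0.263 against 0.38 ± 0.282 CPM) and its partner gene Mypn (0.198 ± 0.175 against 0.313 ± 0.449 CPM) were too low to be tested. The titin gene Ttn, whose product anchors Ankrd1 protein in the sarcomere, was at 4.3 ± 2.15 against 2.56 ± 2.08 CPM (adjusted p = 0.397). Tnnt2, the other tested muscle marker that did not pass, leaned the other way, at 3.92 ± 1.2 against 4.81 ± 0.834 CPM (log2 fold change -0.29 ± 0.28, adjusted p = 0.535).

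The 3 tested loci whose profile over the 8 libraries lay closest to that of Ankrd1, among 14070 single-gene loci with a mean of at least 1 CPM, were Synpo2l, Cdkn2a and Foxd1. The measure was the root mean square difference of log2(CPM + 0.5) after centring on the wild type mean, and it was 1.10, 1.22 and 1.22. Synpo2l, a gene of the sarcomeric Z-disc, was at 53.1, 51, 43.9 and 37.8 CPM in the YAP5SA libraries and between 0.316 and 2.22 CPM in the wild type libraries. Cdkn2a, which encodes cell cycle inhibitors, was at 24.6, 18.9, 7.29 and 1.88 CPM in the YAP5SA libraries, while the wild type libraries were at 0 except replicate 3, at 0.15 CPM. Foxd1, a forkhead transcription factor gene, was at 15.6, 12.2, 8.63 and 7.65 CPM in the YAP5SA libraries and between 0 and 0.477 CPM in the wild type libraries. These loci were picked for this likeness, so their order among the libraries is a description of the choice.

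Among the genes of cell surface proteins, Nt5e and F3 rose most. Nt5e (chromosome 9, 88327609 to 88372089) encodes CD73, the enzyme on the outer membrane that turns AMP into adenosine. It was at 52, 41.7, 34.9 and 20.7 CPM in the YAP5SA libraries, against 5.88, 4.41, 4.35 and 2.68 CPM in the wild type libraries. The lowest YAP5SA library was thus well above the highest wild type library, and the log2 fold change was 3.10 ± 0.31 (SE, n = 4 each, edgeR adjusted p = 0.000147). In rank of log2 fold change Nt5e held place 37 among all tested loci. Around it in adenosine metabolism, 9 of 10 listed genes were tested, with 1 higher and 1 lower. Over all tested loci, 9.06% were called higher and 9.85% lower. The higher gene was Adk, for the adenosine kinase that consumes adenosine inside the cell, at 85.2 ± 4.51 against 71.5 ± 3.19 CPM (log2 fold change 0.25 ± 0.06, adjusted p = 0.0111). The lower gene was Entpd3, for an enzyme that degrades extracellular ATP, at 5.28 ± 2.8 against 17.1 ± 6.75 CPM (-1.68 ± 0.37, adjusted p = 0.00957). The adenosine receptor gene Adora2b, at 2.54 ± 0.394 against 2.91 ± 1.55 CPM, did not pass (adjusted p = 0.785).

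F3 (chromosome 3, 121723537 to 121735052) encodes tissue factor, the membrane receptor that starts blood clotting. Its YAP5SA libraries were at 64.8, 56.5, 40.5 and 33.8 CPM, against 18.4, 13.2, 12.6 and 16 CPM in the wild type libraries. All YAP5SA values exceeded all wild type values, with a log2 fold change of 1.70 ± 0.21 (SE, n = 4 each, edgeR adjusted p = 0.000479). Of 6 tested partners in clotting, 1 rose and 1 fell. Tfpi, which encodes an inhibitor of tissue factor, was at 112 ± 7.34 against 88.7 ± 1.61 CPM (0.33 ± 0.05, adjusted p = 0.00218). F2rl1, for a receptor activated by clotting proteases, was at 11.4 ± 4.5 against 29.3 ± 1.04 CPM (-1.35 ± 0.22, adjusted p = 0.00204). The genes of the soluble factors F7 and F10, which tissue factor engages, were too low to be tested, with at most 0.268 and 3.45 CPM in YAP5SA and 0.477 and 3.97 CPM in wild type libraries.

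Crim1 (chromosome 17, 78199206 to 78376592) encodes a transmembrane protein with cysteine-rich repeats that bind BMP ligands. At its main locus the YAP5SA libraries were at 150, 136, 128 and 110 CPM, against 67.4, 73.7, 85.5 and 69 CPM in the wild type libraries. The groups did not overlap, and the log2 fold change was 0.83 ± 0.10 (SE, n = 4 each, edgeR adjusted p = 0.000434). The second Crim1 locus on the same coordinates held 2.3 and 7.21 fragments in YAP5SA replicates 1 and 3 and was listed at or near 0 in the other 6 libraries, and it was not tested. Of 6 tested BMP ligand and binding-protein genes, Bmp4 rose, at 85.5 ± 9.04 against 60.5 ± 5.77 CPM (0.50 ± 0.09, adjusted p = 0.00325). Bmp2 averaged 20.1 ± 7.61 against 10.7 ± 3.1 CPM and missed the threshold (0.90 ± 0.29, adjusted p = 0.053), but passed with the replicate number as a block (0.00373) and in DESeq2 (0.0192). Bmp7 stood at 94.6 ± 4.75 against 93.2 ± 6.79 CPM (adjusted p = 0.862).

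Myof (chromosome 19, 37899036 to 38043577) encodes myoferlin, a membrane protein that helps vesicles fuse and damaged membrane reseal. It was at 112, 92.6, 100 and 82.2 CPM in the YAP5SA libraries, against 50.4, 61.2, 69.6 and 48 CPM in the wild type libraries. The log2 fold change of 0.75 ± 0.12 passed the test (SE, n = 4 each, edgeR adjusted p = 0.00226). Among 4 tested relatives and partners, Ehd2, for a membrane-shaping ATPase, rose at 209 ± 16.5 against 175 ± 15.6 CPM (adjusted p = 0.0386). Cav1, for the coat protein of caveolae, fell at 137 ± 13.7 against 164 ± 10.5 CPM (adjusted p = 0.0357), and the hearing-related ferlin gene Otof fell at 0.696 ± 0.374 against 1.92 ± 0.12 CPM (adjusted p = 0.02). The Ehd2 call was lost without YAP5SA replicate 2 or 3 or wild type replicate 2 or 4 (adjusted p up to 0.0962). That of Cav1 was lost without any single library but YAP5SA replicate 1 and wild type replicate 4 (up to 0.112), and that of Otof without YAP5SA replicate 3 or 4 (up to 0.0626). In limma fits, Cav1 also lost its call on log2(FPKM + 1) (0.0517) and Otof on unfiltered log2(FPKM + 0.1) (0.0507). The Cav1 libraries overlapped between genotypes. The closest relative, the dysferlin gene Dysf, was at 72.6 ± 9.15 against 75.2 ± 9.66 CPM (adjusted p = 0.788).

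Axl (chromosome 7, 25756500 to 25788733) encodes a receptor tyrosine kinase whose ligand is Gas6. It was at 215, 245, 245 and 230 CPM in the YAP5SA libraries, against 212, 221, 218 and 207 CPM in the wild type libraries. YAP5SA replicate 1 lay within the wild type range and the other 3 above it. The log2 fold change was 0.12 ± 0.05, or 1.09-fold (SE, n = 4 each, edgeR adjusted p = 0.137), and without YAP5SA replicate 1 it was 0.17 with an adjusted p of 0.0281. Of the 4 tested ligands and relatives, Gas6 rose, at 148 ± 19.5 against 108 ± 15.1 CPM (0.45 ± 0.11, adjusted p = 0.0176), a call lost without wild type replicate 2 (0.0535). The sister receptor gene Tyro3 fell, at 85.2 ± 4.71 against 119 ± 6.82 CPM (-0.48 ± 0.06, adjusted p = 0.000437). The receptor gene Mertk was at 38 ± 4.29 against 32 ± 3.2 CPM (adjusted p = 0.136).

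**Figure D2:**
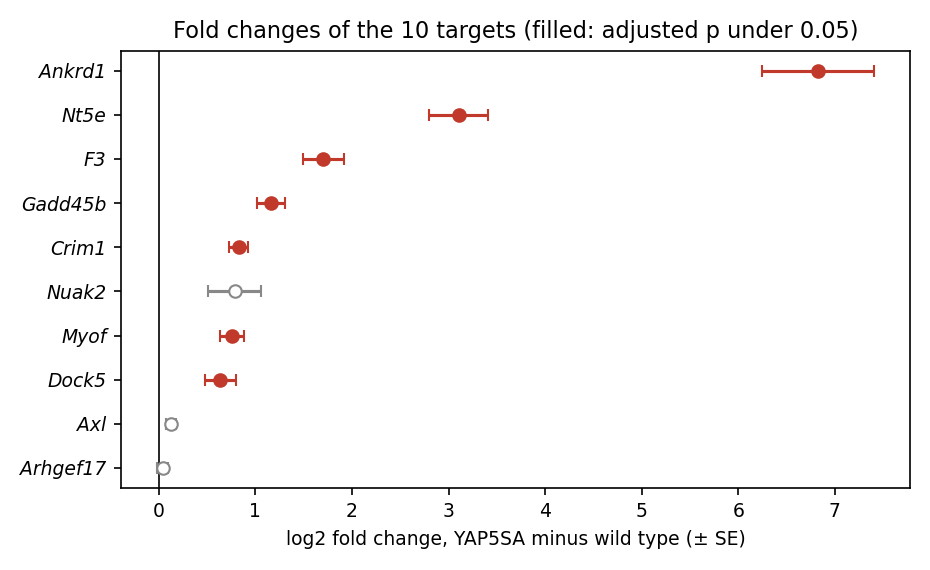
Log2 fold change of each gene, YAP5SA minus wild type, with its standard error from the edgeR fit over 4 libraries per genotype. Filled red points passed an adjusted p under 0.05 and open grey points did not. Ankrd1 at 6.83 and Nt5e at 3.10 lie far right of the others, and Axl and Arhgef17 lie next to 0.

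Inside the cell, Gadd45b (chromosome 10, 80930091 to 80932204) encodes a small stress-response protein that activates a MAP kinase kinase kinase and takes part in DNA demethylation. Its YAP5SA libraries were at 45.9, 49.5, 40.9 and 34.9 CPM, against 22.2, 17.4, 21.4 and 15.5 CPM in the wild type libraries. The groups were separate, with a log2 fold change of 1.16 ± 0.14 (SE, n = 4 each, edgeR adjusted p = 0.000459). The family split: Gadd45g rose too, at 27.5 ± 6.4 against 15.6 ± 1.32 CPM (0.82 ± 0.17, adjusted p = 0.00631), whereas Gadd45a fell, at 10.7 ± 1.71 against 16.4 ± 3.12 CPM (-0.62 ± 0.18, adjusted p = 0.0351). The fall of Gadd45a was lost without YAP5SA replicate 2, 3 or 4 or wild type replicate 1, 2 or 4 (adjusted p 0.0527 to 0.105).

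Dock5 (chromosome 14, 67751928 to 67933572) encodes an exchange factor that loads the GTPase Rac. It was at 67.4, 46.3, 45.9 and 42.9 CPM in the YAP5SA libraries, against 27, 30.3, 40 and 32.9 CPM in the wild type libraries. YAP5SA replicate 1 stood far above the other 3, and wild type replicate 3 came close to the lowest YAP5SA library. The log2 fold change was 0.64 ± 0.16 (SE, n = 4 each, edgeR adjusted p = 0.0191). It was 0.48 without YAP5SA replicate 1 (adjusted p = 0.0224), and the call was lost without wild type replicate 2 (0.0568) and in all 3 fits on FPKM (0.057 to 0.065). Of 8 tested relatives and partners, 2 rose and 0 fell. Its relative Dock4, also a Rac activator, rose by 1.12 ± 0.10, at 99.5 ± 10.2 against 45.6 ± 6.4 CPM (adjusted p = 9.89e-05). Elmo1, for a protein that works with DOCK factors, rose by 0.37 ± 0.12 (adjusted p = 0.0469), a call lost without each of 6 single libraries (all but YAP5SA replicate 4 and wild type replicate 1, adjusted p 0.0778 to 0.0989), in the FPKM fits (0.121 to 0.135) and with upper-quartile factors (0.0582). The founding family member Dock1 was at 224 ± 23.2 against 216 ± 19.2 CPM (adjusted p = 0.755).

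Nuak2 (chromosome 1, 132316125 to 132333488) encodes a kinase of the AMPK family that keeps myosin phosphorylated by acting on the myosin phosphatase. It was at 16.3, 12.7, 11.3 and 8.05 CPM in the YAP5SA libraries, against 9.69, 5.29, 5.1 and 8.05 CPM in the wild type libraries. YAP5SA replicate 4 lay inside the wild type range. The log2 fold change of 0.79 ± 0.27 lay between those of Crim1 and Myof, but its error was larger and it missed the threshold (SE, n = 4 each, edgeR adjusted p = 0.0725). With the replicate number as a block, Nuak2 passed (adjusted p = 0.044), which made 8 of 10 genes, with 9.91% of all tested loci called higher by that fit. DESeq2 passed it too (0.0417; 9.92% of loci called higher), as did the fits without YAP5SA replicate 4 (0.0365) or wild type replicate 1 (0.0424).

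The related kinase gene Nuak1 was far more abundant than Nuak2 and rose by 1.74 ± 0.08 (edgeR adjusted p = 2.34e-06). It was at 208, 222, 193 and 186 CPM in the YAP5SA libraries, against 53.5, 63.5, 65.4 and 58.4 CPM in the wild type libraries. Ppp1r12b, which encodes a myosin phosphatase subunit found in muscle, fell by 0.57, at 123 ± 4.57 against 182 ± 18.5 CPM (adjusted p = 0.000479). Thus 1 of the 5 tested relatives and partners of Nuak2 rose and 1 fell.

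Arhgef17 (chromosome 7, 100869746 to 100932161) encodes an exchange factor for the GTPase RhoA. It was at 297, 306, 346 and 338 CPM in the YAP5SA libraries, against 302, 311, 326 and 313 CPM in the wild type libraries. Of the YAP5SA libraries 2 lay below the wild type mean and 2 above the whole wild type range. The log2 fold change was 0.04 ± 0.06 (SE, n = 4 each, edgeR adjusted p = 0.704). Of its 8 tested partners only Rock2, for a kinase that RhoA activates, passed the test, at 203 ± 14.5 against 171 ± 2.7 CPM (0.25 ± 0.05, adjusted p = 0.00992), and it lost the call in all 3 FPKM fits (0.195 to 0.239). Rhoa itself was at 93.8 ± 4.74 against 100 ± 2.13 CPM (adjusted p = 0.212).

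Axl and Arhgef17 differed from the others in how densely their exons were covered. They had 0.316 and 0.208 fragments per exonic base on average over the 8 libraries, while the other 8 genes had 0.0177 to 0.142. Among the 1618 tested loci with 0.2 to 0.4 fragments per base, counts followed library depth within a genotype with a log-log slope of 0.607. Other targets given below in this range included Amotl2 (0.242) and Igfbp3 (0.397), which rose, and Tgm2 (0.283) and Itgb5 (0.279), which fell. The slope was 0.875 for the 3316 loci with 0.1 to 0.2, where Crim1 and Gadd45b lie, and 1.15 for the 2951 loci with 0.05 to 0.1, where Ankrd1 and F3 lie. It was 1.71 for the 3226 loci with 0.01 to 0.05, where Nt5e, Myof, Dock5 and Nuak2 lie. A slope above 1 means that CPM were higher in deeper libraries and a slope below 1 that they were lower, and every YAP5SA library was deeper than every wild type library. The slopes rest on 8 libraries, and YAP5SA replicate 1, the deepest at 8.51 M fragments, had the most weight in them. Whether they hold between genotypes, and the part of depth and coverage in the differences of the 10 genes, was not tested.

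Per length of transcript, the order of the genes differed between genotypes. In YAP5SA stomachs the mean FPKM ran from Axl (47.3 ± 2.83), Gadd45b (39.8 ± 5.9), Arhgef17 (31.5 ± 2.33), F3 (28.8 ± 8.44), Ankrd1 (28.7 ± 13.6) and Crim1 (22.3 ± 2.82) to Myof (13.7 ± 1.78), Nt5e (10.9 ± 3.85), Dock5 (4.92 ± 1.11) and Nuak2 (4.1 ± 1.16; SD, n = 4). Neighbours in this order overlapped in their library ranges except Crim1 and Myof. In wild type stomachs the mean FPKM was highest for Axl (43.1 ± 1.22), followed by Arhgef17 (30.4 ± 0.962), Gadd45b (17.6 ± 3), Crim1 (12.5 ± 1.37), F3 (8.8 ± 1.58), Myof (8.08 ± 1.39), Dock5 (3.13 ± 0.531), Nuak2 (2.37 ± 0.753), Nt5e (1.25 ± 0.379) and Ankrd1 (0.245 ± 0.25). There the neighbours that overlapped were Gadd45b and Crim1, F3 and Myof, and Dock5 and Nuak2. Ankrd1 thus stood last in wild type stomachs but beside F3 in YAP5SA stomachs. The 2 genes with the lowest wild type FPKM had the largest fold changes and the 2 with the highest had the smallest, with a Spearman correlation of -0.636 over the 10 genes. That correlation is given as a description, since the wild type level enters both quantities and the genes share the same libraries.

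**Figure D3:**
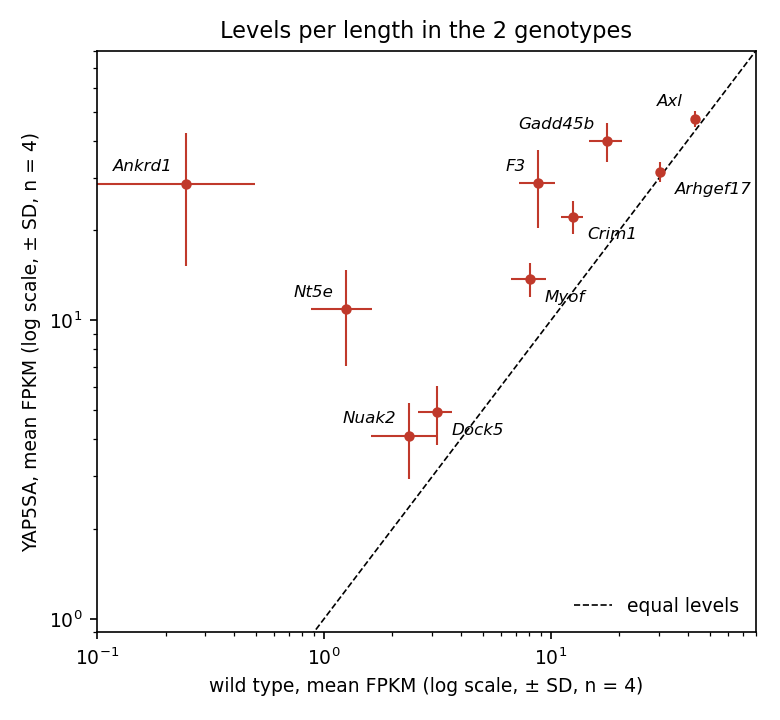
Mean FPKM of each gene in YAP5SA (vertical axis) and wild type stomachs (horizontal axis), both on log scales, with error bars of 1 SD over 4 libraries and a dashed line of equal levels. The lower wild type bar of Ankrd1 would reach below 0 and ends at the axis. Ankrd1 and Nt5e lie farthest above the line, and Arhgef17 and Axl lie on or next to it.

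Most of the 10 genes also shared a pattern among the YAP5SA libraries. YAP5SA replicate 4 had the lowest CPM of its genotype for 8 of the 10 genes, all but Axl and Arhgef17, and replicate 1 the highest for 7, all but those and Gadd45b. Over all tested loci, replicate 4 was lowest in 23.4% and replicate 1 highest in 33.3%, and over the loci called higher these shares were 44.7% and 45.2%. Among the 13 other YAP and TEAD targets of the short list given below, replicate 4 was lowest for 7 and replicate 1 highest for 4. The highest YAP5SA library exceeded the lowest 3.17-fold for Ankrd1, 2.52-fold for Nt5e, 2.02-fold for Nuak2 and 1.92-fold for F3, and by 1.14 to 1.57-fold for the other 6 genes. The genes were measured in the same 4 libraries, so this is a description of those libraries and carries no test. Replicate 1 was also the deepest YAP5SA library, at 8.51 M fragments, while replicate 4 was deeper than replicates 2 and 3. Among the wild type libraries, replicate 4 had the most Ankrd1 but the least Nt5e, and replicate 1 the most Nt5e, F3, Gadd45b and Nuak2.

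Markers of other cells moved along the same libraries in part. Their calls stand beside 9.06% of all tested loci called higher and 9.85% called lower. The summed CPM of 7 macrophage markers was 762, 636, 604 and 526 in YAP5SA replicates 1 to 4 and 282 to 383 in wild type libraries, and all 7 markers were called higher. The summed CPM of 6 smooth muscle markers was 782, 742, 659 and 555 in the same YAP5SA libraries and 1263 to 1341 in wild type libraries, with 5 of the 6 called lower. For markers of gastric epithelium, enteric neurons and enteric glia, all 13 that were tested were called lower, and YAP5SA replicate 1 had the highest sum of each list within its genotype. Of 5 endothelial markers 1 was called higher, the receptor gene Kdr, with sums of 553 to 627 against 466 to 551 CPM. Of 5 mesothelial markers 2 were called lower (sums 295 to 349 against 328 to 450 CPM). The calls of Ptprc among the macrophage markers, Krt18 (epithelium) and Upk3b (mesothelium) were lost when some single libraries were left out, with adjusted p up to 0.0663, 0.0827 and 0.0852. The part of these cell types in the values of the 10 genes was not tested.

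**Figure D4:**
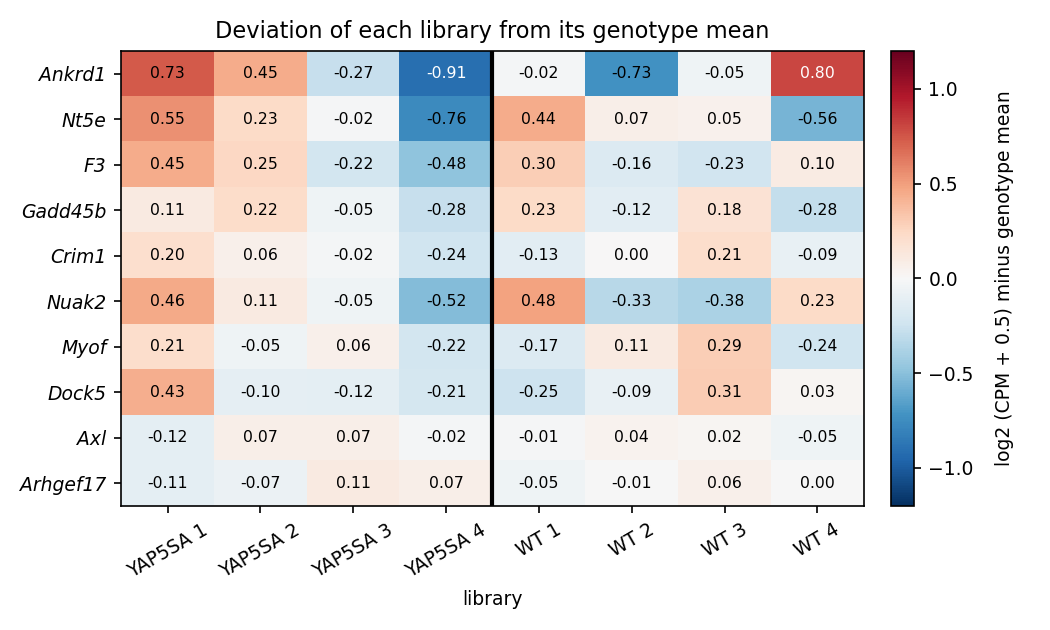
Deviation of each library from the mean of its genotype, as log2(CPM + 0.5), for each gene (rows) in the 4 YAP5SA libraries (left of the line) and the 4 wild type libraries (right), with the value printed in each cell. YAP5SA replicate 4 is below its genotype mean for Ankrd1 (-0.91), Nt5e (-0.76), Nuak2 (-0.52) and F3 (-0.48), and replicate 1 above it (0.73, 0.55, 0.46 and 0.45).

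Other published YAP and TEAD targets were counted in 2 lists, beside 9.06% of all tested loci called higher and 9.85% called lower. In the short list of 13 genes commonly grouped with the 10, 8 rose and 2 fell, with a median log2 fold change of 0.49. The CCN genes Cyr61 and Ctgf rose, Cyr61 at 99.3 ± 13.7 against 35.8 ± 4.88 CPM and Ctgf at 56 ± 14.8 against 33.2 ± 4.71 CPM (adjusted p = 5.53e-05 and 0.0153). The Hippo feedback genes Lats2 and Amotl2 rose at 178 ± 6.19 against 110 ± 7.18 CPM and at 263 ± 10.6 against 161 ± 13.2 CPM (adjusted p = 4.32e-05 and 8.21e-05). Igfbp3, which encodes a binding protein for insulin-like growth factors, rose at 213 ± 12.9 against 133 ± 7.1 CPM (adjusted p = 7.13e-05). The genes that fell were the forkhead gene Foxf2, at 33 ± 3.6 against 59.3 ± 13.1 CPM (adjusted p = 0.00326), and Gadd45a, given above, so that 1 gene fell in the 6 fits in which Gadd45a lost its call. Ptpn14, Tgfb2 and Fjx1 did not pass (adjusted p = 0.102, 0.0846 and 0.569), though Ptpn14 passed with the replicate block (0.0379) and when wild type replicate 3 was left out (0.00292), and Tgfb2 passed in DESeq2 (0.0489) and in that same leave-out (0.0337). The libraries of Tgfb2 did not overlap between genotypes, at 107.4 to 118.1 CPM in YAP5SA and 64.51 to 106.6 CPM in wild type stomachs.

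The wide list took in 47 genes of a broader YAP signature, of which 45 had a locus of their own and were tested. Of these 13 rose, 4 fell and 28 did not pass, with a median log2 fold change of 0.10. The shares over all tested loci were 9.06% higher and 9.85% lower. The largest rise was that of the basement membrane collagen gene Col4a3, at 39, 18.9, 20.6 and 15.7 CPM in the YAP5SA libraries, against 1.43, 1.62, 0.45 and 1.9 CPM in the wild type libraries (log2 fold change 4.12 ± 0.40, adjusted p = 0.000147). Ddah1, for an enzyme that clears methylated arginines, and Pdlim2, for an actin-associated adaptor, rose by 1.23 ± 0.07 and 1.43 ± 0.13 (adjusted p = 9.09e-06 and 9.89e-05), and Tns1, for the focal adhesion protein tensin, by 0.58 ± 0.07 (adjusted p = 0.00048). The genes that fell were Tgm2 (-0.47 ± 0.07), Sh2d4a (-1.31 ± 0.27), Itgb5 (-0.24 ± 0.06) and Tspan3 (-0.16 ± 0.05), the first encoding a protein-crosslinking transglutaminase and the third an integrin subunit. The Tspan3 call was lost with the replicate block (0.0589) and without any single library (0.0545 to 0.104), and the wide list held only 2 falling genes without YAP5SA replicate 2 or 4 or wild type replicate 1 or 3, where Itgb5 lost its call too (0.0505 to 0.0534). The lists and the 10 genes were compared in the same libraries, and no test of the difference between them was made.

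**Figure D5:**
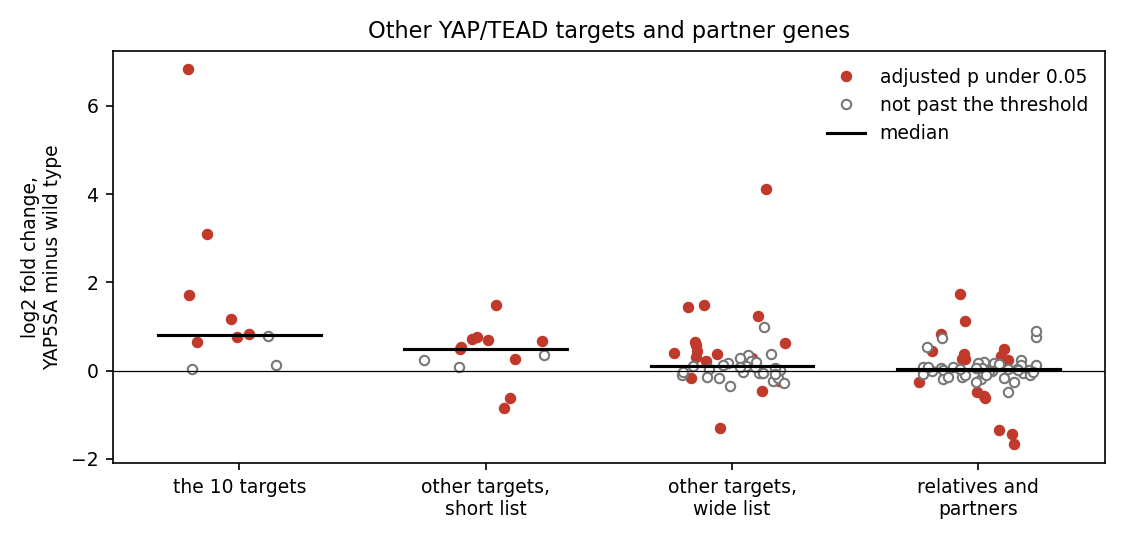
Log2 fold change, YAP5SA minus wild type, of each tested gene (points) in the 10 targets, the short and the wide list of other targets, and the relatives and partners of the 10 genes, with the median of each as a black bar. Filled red points passed an adjusted p under 0.05. The medians of the first 3 groups are 0.81, 0.49 and 0.10.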

How the data were processed

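Total RNA from frozen stomachs was extracted with Trizol and made into Illumina TruSeq libraries, per the labels' protocols. The submitters' processing notes name mm10, TopHat2 2.0.9, Cufflinks 2.2.1 and Cuffdiff; their roles, the use of strand and the treatment of duplicates are not given in the sources used here. The authors deposited raw fragments per locus and library, which are estimated counts (10.6% to 11% were not whole), and FPKM, scaled by the authors. The table numbers libraries 0 to 3 within a condition, which was read as replicates 1 to 4 of the labels because Cuffdiff counts from 0; group membership does not depend on this. Nothing says whether libraries are separate embryos, so p-values reflect only how these libraries vary, which may be technical. No 2 libraries of a genotype agreed within counting error (chi-square per locus 2.29 to 7.3).

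Counts were rounded, the 3582 loci without a gene name (1.85% to 1.97% of fragments) were left out, and edgeR 4.0.16 (R 4.3.3) fitted genotype with TMM factors, filterByExpr (10 fragments, 15 in total) and the robust quasi-likelihood test. Every adjusted p is its two-sided Benjamini-Hochberg value over 14574 loci, called under 0.05, unless another tool is named. CPM use TMM library sizes, and a positive log2 fold change means higher in YAP5SA. Of a name with several loci, the locus with most fragments was used. Start positions of the deposited table were raised by 1 to be 1-based. On simulated data for this comparison over 14574 loci, edgeR recovered 85% of 2-fold and 69% of 1.5-fold changes, with 5.52% false calls. In it 100 loci were changed by each fold, and the spread followed the trend over all loci. The fitted coefficient of variation of the 10 genes ran from 0.0564 (Axl) to 0.36 (Ankrd1), beside a median of 0.0896 over all tested loci. The simulated rates need not hold for these genes. Same-numbered libraries of the genotypes deviated together weakly (correlations 0.227, 0.144, 0.151 and 0.217 across loci), while differently numbered ones correlated at -0.26 to 0.096. These deviations sum to 0 within a genotype, so the correlations are not independent of each other. The fit with the replicate number as a block treats same-numbered libraries as paired, which is an assumption, since the labels name no pairing.

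The 10 genes and all lists were chosen with earlier results of these data known. Genes named are the 10, the genes called in each list (up to 4 by smallest p, and those a small count needs), Yap1, Wwtr1, Nkx3-2, Gt(ROSA)26Sor and the 3 profiles closest to Ankrd1. Ctgf was named beside Cyr61 as a CCN gene, outside the rule of smallest p. Partner and muscle genes named as not passing were picked with their values known. Alternatives were other size factors, filters and tools (DESeq2 1.42.0, limma 3.58.1), FPKM with pseudocounts of 0.1 and 1, the block and leaving out each library. Exonic lengths came from GENCODE M21 (87.7% of tested loci).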

Additional observations from a re-analysis of the deposited data

Results flagged for a closer look

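Dock5 in YAP5SA replicate 1, at 67.4 CPM beside 46.3, 45.9 and 42.9 CPM in the other YAP5SA libraries, stood far from its group: its gap to the next library was 0.863 of the group's range, above Dixon's 95% critical value for 4 samples. It was the only such value among 20 groups examined (10 genes in 2 genotypes), and chance flags about 1 in 20 groups. That library was also the highest for 6 other genes of the 10.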

How the results depend on the processing

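The number of the 10 genes called higher stayed between 6 and 8 in all 18 alternatives, with 0 called lower in each. It was 6 without Dock5 in the 3 FPKM fits and without wild type replicate 2, and 8 with Nuak2 under the replicate block, DESeq2 and without YAP5SA replicate 4 or wild type replicate 1, and with Axl without YAP5SA replicate 1. The replicate block changed no other call of the 10. The log2 fold change of Ankrd1 was 4.47 on the log2(FPKM + 1) scale, where the pseudocount exceeds its wild type level, and 6.42 to 7.69 when a library was left out. Its adjusted p over all alternatives ran from 1.13e-18 to 0.00762. No gene changed direction past the threshold. When a library was left out, the falls in the short list numbered 1 to 2, those in the wide list 2 to 4 and those of relatives and partners 4 to 7, and the rises of the 3 sets 8 to 10, 11 to 13 and 7 to 12. Over all loci, the calls then numbered 1004 to 1284 higher and 974 to 1521 lower. With 4 libraries a genotype and 163 to 578 fragments of Ankrd1 in YAP5SA against 0 to 6 in wild type libraries, the wild type level limits its fold change, and for Nuak2, with 34 to 136 fragments a library, counting error adds to the spread.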
